A study of Mus musculus with 5 samples.

Results

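The replication-dependent histone genes of the mouse were examined for binding of ATRX in cultured neurons. Members were the protein-coding genes of the RefSeq annotation of GRCm38.p6 on chromosomes 3, 11 and 13 whose symbols follow the naming of the histone clusters (H1f1 to H1f6, H2ac, H2bc, H3c and H4c, or the older Hist names). This rule found 63 of 21887 protein-coding genes, with 0 of them on chromosome 11, where the annotation uses other symbols for the histone genes. The members were 6 linker histone H1 genes, 17 H2A, 16 H2B, 12 H3 and 12 H4 genes. They lay in 3 clusters, the first on chromosome 13 with 22 genes (chr13:21715711-22043658), the second on chromosome 13 with 31 genes (chr13:23531044-23934913) and the third on chromosome 3 with 10 genes (chr3:96219885-96270192). Most are single short transcription units, with a median length of 492 bp against 17169 bp for all protein-coding genes, and 5 members, H2bc4, H2bc6, H2bc21, H2bc22 and H2bc23, were annotated as longer than 1 kb.

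Chromatin immunoprecipitation with an ATRX antibody and sequencing (ChIP-seq) was done on primary neurons from C57BL6/J mouse embryos of stage E15.5-17.5; lentivirus was added at day 5 of culture. The series holds 4 ATRX libraries with a peak list, each the single one of its group. Neurons of the TBC1D3 library carried TBC1D3, a hominoid-specific gene, and were taken at day 14 in vitro (DIV14). Those of the MICAL1-M1 library carried a construct of that name and were also taken at DIV14. Neurons with mCherry, a fluorescent protein, were taken at day 7 (DIV7), which the series design calls young, and at DIV14, which it uses as the control. All groups thus share the infection, the labels give no promoter for the constructs, and the peak names inside the MICAL1-M1 list carry the tag M2 and not M1. With 1 library per group no difference below has a replicate error or a p-value, and intervals cover counting error only. In such bulk material, fewer cells with a bound site and less binding per cell cannot be told apart.

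Replication-dependent histone genes supply the histones that package newly made DNA. Their transcripts have no introns and end in a stem-loop in place of a poly(A) tail, and in dividing cells the clusters gather in the histone locus body, where the coactivator NPAT works. Neurons no longer divide and draw more on replication-independent variants such as H3.3. ATRX, together with the chaperone DAXX, places H3.3 at heterochromatin and repeats. Peak lists do not measure whether any of these genes was transcribed.

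The promoters of a few members are shown because the strongest peaks lay at these genes and because they carry letters of elements typical of the histone classes. The sequences run 5′ to 3′ on the coding strand, from 250 bases before the annotated start to 50 bases after it (RefSeq, GRCm38.p6). Capitals mark the TATA box with the letters TATAAA, the box named after its letters CCAAT, and the octamer, which reads ATTTGCAT, each on either strand. H3c6 (chr13:23562336-23562635, minus strand) had the strongest control peak, H2ac20 (chr3:96220831-96221130, minus) and H2ac7 (chr13:23574131-23574430, plus) each lay under a peak that 3 members share, H1f2 (chr13:23738557-23738856, plus) had peaks in the MICAL1-M1 list alone, and H4c18 (chr13:21832148-21832447, minus) and H4c17 (chr13:21811496-21811795, plus) are near-identical copies.
H3c6: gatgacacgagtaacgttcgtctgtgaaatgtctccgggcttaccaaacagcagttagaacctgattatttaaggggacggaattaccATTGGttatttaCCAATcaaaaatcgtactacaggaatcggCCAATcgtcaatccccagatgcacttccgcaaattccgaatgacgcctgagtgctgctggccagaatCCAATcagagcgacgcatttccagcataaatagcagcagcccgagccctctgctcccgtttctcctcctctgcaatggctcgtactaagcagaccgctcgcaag
H2ac20: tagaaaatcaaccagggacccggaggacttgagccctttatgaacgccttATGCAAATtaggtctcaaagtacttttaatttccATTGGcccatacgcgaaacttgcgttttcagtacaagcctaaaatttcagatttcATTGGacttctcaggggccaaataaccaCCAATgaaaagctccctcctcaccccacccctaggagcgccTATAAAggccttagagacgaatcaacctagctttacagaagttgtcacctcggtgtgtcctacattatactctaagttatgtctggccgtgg
H2ac7: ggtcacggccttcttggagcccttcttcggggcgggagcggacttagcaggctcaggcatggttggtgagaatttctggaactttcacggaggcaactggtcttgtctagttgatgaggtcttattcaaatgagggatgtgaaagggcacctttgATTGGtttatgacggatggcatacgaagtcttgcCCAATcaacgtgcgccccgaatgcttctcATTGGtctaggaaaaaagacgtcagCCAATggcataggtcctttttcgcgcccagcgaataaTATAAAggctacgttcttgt
H1f2: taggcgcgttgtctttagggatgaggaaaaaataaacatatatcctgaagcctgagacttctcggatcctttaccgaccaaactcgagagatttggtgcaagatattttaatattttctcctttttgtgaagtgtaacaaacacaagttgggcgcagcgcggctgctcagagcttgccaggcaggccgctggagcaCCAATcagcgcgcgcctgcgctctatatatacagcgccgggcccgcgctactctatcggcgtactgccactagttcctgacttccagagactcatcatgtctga
H4c18: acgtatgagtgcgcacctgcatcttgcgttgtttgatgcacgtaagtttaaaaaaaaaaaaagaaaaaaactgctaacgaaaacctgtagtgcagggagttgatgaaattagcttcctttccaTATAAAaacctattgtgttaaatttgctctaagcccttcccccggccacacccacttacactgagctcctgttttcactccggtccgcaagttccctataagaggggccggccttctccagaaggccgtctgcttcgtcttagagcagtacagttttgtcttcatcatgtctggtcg
H4c17: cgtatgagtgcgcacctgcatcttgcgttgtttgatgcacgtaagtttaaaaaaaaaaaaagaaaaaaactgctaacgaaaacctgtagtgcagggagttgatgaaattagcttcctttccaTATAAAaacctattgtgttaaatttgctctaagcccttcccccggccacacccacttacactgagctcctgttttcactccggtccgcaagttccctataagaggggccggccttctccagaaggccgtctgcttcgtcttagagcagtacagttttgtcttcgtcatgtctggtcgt

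Of the 63 members, 58 were found in the promoter table, with 59 promoters. The letters CCAAT were in 51 of the 59 (86.4%), against 38.2% of the 21263 promoters of protein-coding genes. The letters TATAAA were in 34 (57.6%), against 12.6%. By class, CCAAT was in all promoters listed for H1, H2A, H2B and H3 genes but in 3 of 11 for H4 genes, as the H4c17 and H4c18 sequences show. The octamer was in 6 of 17 H2A and 7 of 15 H2B promoters and in none of the H1, H3 or H4 ones; over all protein-coding promoters it was in 1.66%. These are not separate counts: among members in the promoter table, 9 pairs of an H2A and an H2B gene start back to back. They start 163 to 280 bp apart, so their windows overlap. A site in the overlap counts for both genes. The octamers of H2ac12 with H2bc12, H2ac8 with H2bc8 and H2ac1 with H2bc1 are such shared sites. A run of 4 G on either strand (GGGG) is of interest because ATRX is known for G-rich repeats. It was less common in members (59.3%) than in protein-coding promoters (88.2%), but not in every class. It was in all 11 H4 promoters, 5 of 6 H1, 7 of 10 H3, 9 of 17 H2A and 3 of 15 H2B promoters. The median GC content was 45.3% in member promoters and 56.3% in those of protein-coding genes.

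Copies matter for reading the peaks. Compared base by base at the best offset, without gaps and over at least 200 bases, 5 of 1710 pairs of member promoters were at least 70% identical. These were H2ac23 with H2ac24 (200 of 200 bases), H4c17 with H4c18 (298 of 299), H3c15 with H3c14 (284 of 285), H4c11 with H4c12 (274 of 286) and H2ac19 with H2ac18 (249 of 260). How reads that fit both copies were placed is not given in the sources used here, so peaks at these 10 genes, and in coding sequence that histone genes of a class share, are uncertain as to which copy they belong to.

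In the control neurons most histone genes had an ATRX peak at one of their ends. A gene is called occupied here when the summit of at least 1 peak lies within 1 kb of either annotated end. In the control list 43 of 63 histone genes (68.3%, 95% exact binomial interval 55.3 to 79.4) were occupied, against 42.3% of all protein-coding genes. These 43 genes rested on 34 distinct peaks, since neighbouring genes share peaks: 14 of the 34 served 2 or 3 members. On shared peaks lay 25 of the 43 genes. The binomial intervals here and below count each gene as separate, so they understate the counting error. Giving each summit to its nearest gene end left 32 of 63 genes, a setting for which no share of all genes is given. On the chromosome 3 cluster 9 of 10 genes were occupied (6 distinct peaks), on the first chromosome 13 cluster 15 of 22 (12 peaks) and on the second 19 of 31 (16 peaks). At the window edge, the members just inside were H2ac4 (945 bp) and H3c4 (952 bp) and those just outside H3c14 (1075 bp) and H4c4 (1205 bp).

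The windows of the histone genes overlap, so density was also set per length. Merged, the windows cover 126.3 kb. The control list had 26.9 summits per 100 kb there and 3.71 over the genome, a ratio of 7.27 (95% exact Poisson interval 5.03 to 10.2), while the merged windows of all protein-coding genes had a ratio of 3.28 (3.21 to 3.34). Outside the histone windows the ratio was 1.88 (1.15 to 2.90) in the rest of the first chromosome 13 span, an interval above the genome mean, 0.554 (0.223 to 1.14) in the rest of the second and 0.807 (0.0204 to 4.5) in the rest of the chromosome 3 span. Other protein-coding genes of up to 1 kb, of which 65.9% are olfactory, vomeronasal or taste receptor genes, had a ratio of 0.362 (0.275 to 0.467). Without those receptor genes, 9.27% of the remaining 518 short genes were occupied in the control.

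**Figure D1:**
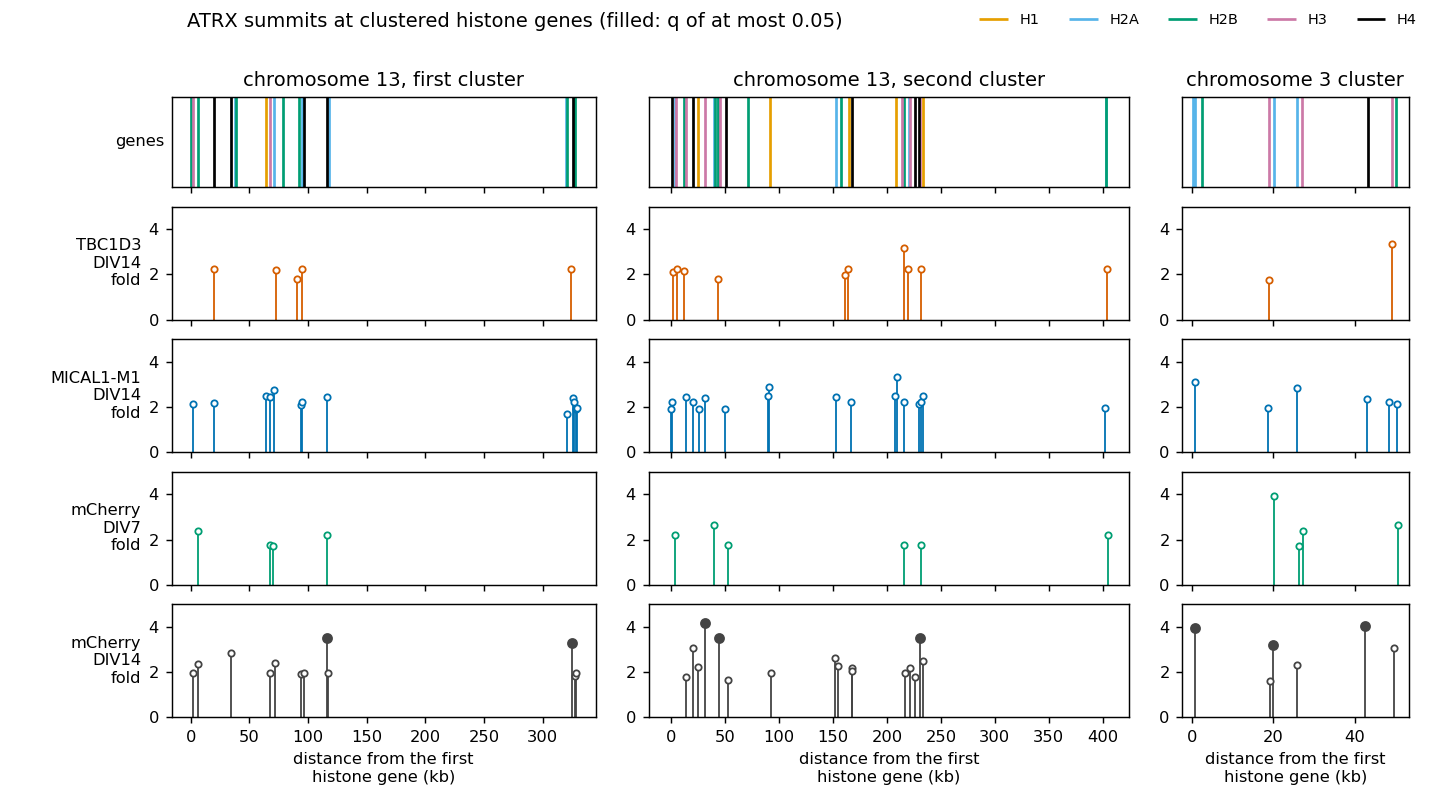
Gene-end peaks along the 3 histone clusters, as distance from the first histone gene in kb; the top row shows genes coloured by class and each row below the fold of the peaks of 1 library, with filled points at a q of at most 0.05. The 8 filled points are all in the mCherry DIV14 row, and the MICAL1-M1 row has the most peaks, 37.

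The control list alone had histone peaks with a q of at most 0.05. Folds are the authors' enrichment of a peak over the caller's local background. The pileup is the whole number of fragments at the summit that fits the fold and p of a peak. In this fit the same small constant is added to pileup and background, so folds are lower than the plain ratio of fragments. The lowering is larger where the background is low, so folds of different lists are not on quite the same scale. Peaks with a q of at most 0.05 numbered 8 and served 15 members (8.47% of all protein-coding genes were occupied at this threshold). H3c6, an H3 gene, lay under the strongest (chr13:23561514-23562364, 4.16-fold, 18 fragments over a background of 3.56, q 0.000676), which ranked 287 by p among the 96647 control peaks on the assembled chromosomes. H4c14, the H4 gene of chromosome 3, followed (chr3:96262096-96263409, 4.05-fold, q 0.000857), with the summit 736 bp outside the gene. Another peak, 2312 bp wide, served the pair H2ac20 and H2ac21 and the neighbouring H2bc21 (chr3:96219308-96221619, 3.94-fold, 17 fragments, q 0.00229); H2bc21 encodes H2BE, an H2B variant known from neurons. Its summit lay inside H2ac20, 90 bp after the start.

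At 3.51-fold and a q of 0.0189 there were 3 more peaks, each with 15 fragments. They lay inside H4c18 with H2ac24 at the window edge (chr13:21831829-21832654), inside H2ac7 with H2bc7 and H3c4 nearby (chr13:23574467-23575019), and inside H3c1 with H4c1 nearby (chr13:23760399-23762340). The last of the 8 were a peak at H4c9 (3.29-fold) and a peak inside H2ac19 near H3c15 (3.19-fold), both with a q of 0.047. Among the other members the highest control folds were 3.07 at H4c6 and at H3c13 with H2bc18, 2.85 at H4c12 and 2.63 at H2ac6. None of the 8 peaks served any of the 6 H1 genes; the H1 genes with a control peak, named here for their class, were H1f1 (2.49-fold), H1f3 (2.23-fold) and H1f4 (1.97-fold), all with a larger q. Of the 34 peaks 16 had a q of 1, and the median pileup was 10.5 fragments, so a summit at a single weaker gene rests on few fragments.

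**Figure D2:**
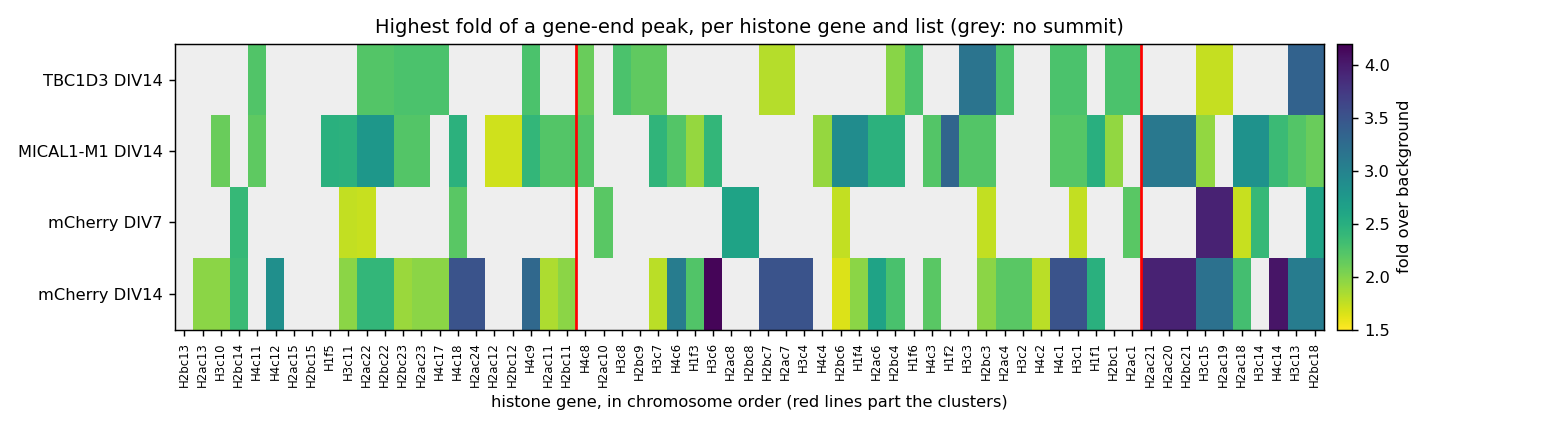
Highest fold of a gene-end peak for each of the 63 histone genes (columns, in chromosome order) in the 4 libraries (rows); grey means no summit within 1 kb. The darkest cells are H3c6, H4c14 and the H2ac21 to H2bc21 group in mCherry DIV14 and the H3c15 and H2ac19 peak in mCherry DIV7.

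In all 4 lists, summits were more frequent just after the start of histone genes than just before it, as they were over all protein-coding genes. In TBC1D3 and mCherry DIV7 this rests on few summits. Of the control's 34 peaks 23 had their summit inside a member (67.6%), although the genes are short. Around the 58 starts whose strand is known, the control list had 17.2 summits per 100 starts in the first 250 bp after the start and 13.8 in the next 250 bp, but 1.72 in the 250 bp before it. Over all protein-coding genes the control values were 11.5, 7.43 and 6.28. The MICAL1-M1 list had 13.8, 19 and 1.72 at histone genes and 8.3, 6.82 and 4.97 over all. The TBC1D3 list had 1.72, 8.62 and 0 at histone genes and 4.5, 5.32 and 2.73 over all. Its fullest bin lay 1000 to 750 bp before the start (10.3, against 1.96 over all) and rested on 6 pairs of a summit and a start. That bin was not particular to TBC1D3: in MICAL1-M1 it held 12.1, against 2.24 over all. The list of mCherry neurons at DIV7 had 3.45, 8.62 and 0 at histone genes and 4.79, 5.36 and 2.41 over all. A summit near several starts counts once for each, so the bars are no independent events. The promoter window shown above held a summit in 0 of 59 cases in TBC1D3, 2 in MICAL1-M1, 0 in mCherry DIV7 and 2 in the control, against 3.79%, 6.79%, 3.55% and 9.09% of protein-coding promoters. The control's were those of H3c10 and H2bc22, and those of MICAL1-M1 were H3c11 and H1f2. Among members with a known strand, 9 pairs of an H2A and an H2B gene start back to back, 163 to 280 bp apart, as H2ac7 and H2bc7 do. H2bc21, next to H2ac20, and H2bc4, next to H2ac6, had no known strand and were left out of this count. These 9 gaps cover 1.85 kb in all and held no summit in any list, too short a length to tell their density from that of the histone windows. Summits over the pair as a whole were found in 3 pairs in TBC1D3, 4 in MICAL1-M1, 2 in mCherry DIV7 and 4 in the control.

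**Figure D3:**
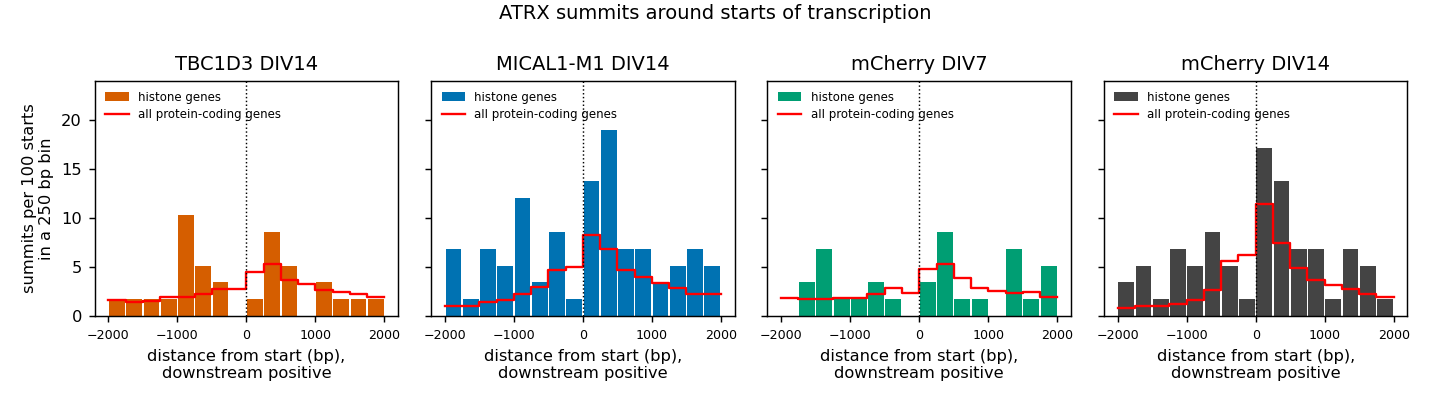
Summits per 100 starts of transcription in 250 bp bins, from 2000 bp before to 2000 bp after the start, for 58 histone genes (bars) and 17492 protein-coding genes (red line) in each library. In mCherry DIV14 and MICAL1-M1 the bars rise over the line after the start and fall under it in the bin just before it.

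With TBC1D3, fewer histone genes were occupied than in the control, and none by a peak with a q of at most 0.05. The share was 26 of 63 (41.3%, 29 to 54.4) in TBC1D3 neurons, where 33.4% of all protein-coding genes were occupied, against 43 of 63 in control neurons. The occupied genes rested on 17 distinct peaks, against 34. The density ratio was 1.80 (1.05 to 2.89), against 7.27 (5.03 to 10.2), and over all gene-end windows it was 1.37 against 3.28. Relative to the control 8 members were occupied with TBC1D3 alone, 25 in the control alone and 18 in both; over all protein-coding genes these shares were 15.6%, 24.4% and 17.9%. Of all protein-coding genes 0.146% were occupied in this list at a q of at most 0.05, and 16 of the 17 histone peaks had a q of 1. The median fold was 2.26 in TBC1D3 and 2.26 in the control, and the highest 3.35 and 4.16, values that the added constant lowers more in TBC1D3. The list is the shallower one, with a background of 1.22 fragments against 3.56 and a median pileup at histone peaks of 4 against 10.5; the part of depth in the difference was not tested. With each list cut to its 96647 peaks of lowest p, 15 members (23.8%) were occupied in TBC1D3 and 43 (68.3%) in the control. Of all protein-coding genes 19.2% and 42.3% were. This cut lies between rank 61401, shared by the 2.26-fold TBC1D3 histone peaks, and rank 129872 of the next one. Ties in p can decide which peaks stay there, so these shares are approximate. With a 500 bp window 12 members (19%) were occupied in TBC1D3 and 33 (52.4%) in the control, against 20.4% and 31.9% of all protein-coding genes, so that the TBC1D3 share was then no higher than that of all genes.

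The TBC1D3 peaks with the highest folds were at H3c13 and H2bc18 on chromosome 3 (3.35-fold, 7 fragments) and between H3c3 and H2bc3 (3.16-fold, 6 fragments). The summit between H3c3 and H2bc3, at position 23746413 of chromosome 13, lay within the pseudogene H2ac5-ps, and the MICAL1-M1 list had a summit at 23746406. H3c6, H4c14 and the group of H2ac20, H2ac21 and H2bc21, which carried the strongest control peaks, had no TBC1D3 summit within 1 kb. H2ac7 and H2bc7 stayed occupied, at 1.80-fold and 3 fragments in TBC1D3 against 3.51-fold in the control. All 3 members known as testis-specific histones, H1f6 (H1t), H2ac1 (TH2A) and H2bc1 (TH2B), were occupied in the TBC1D3 list at 2.26-fold, 1 (H2bc1) was in MICAL1-M1, 1 (H2ac1) was in mCherry DIV7 and none was in the control; these 3 were picked after the values were known. H2ac1 and H2bc1 share 1 TBC1D3 peak of 4 fragments, the H1f6 peak also had 4, and 2.26-fold is the median of that list. Of all protein-coding genes 33.4%, 38.7%, 33.2% and 42.3% were occupied in TBC1D3, MICAL1-M1, mCherry DIV7 and the control. Of the TBC1D3 histone peaks 5 of 17 (29.4%) overlapped a control peak, which is 6.34% over all TBC1D3 peaks. Of the 34 control histone peaks 5 (14.7%) were overlapped, against 12.7% over all control peaks. The shares over all peaks include peaks far from genes, so they are not like for like. Of genes occupied in TBC1D3, 18 of 26 members and 3914 of 7319 protein-coding genes were also occupied in the control.

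With MICAL1-M1, about as many histone genes were occupied as in the control. The share was 41 of 63 (65.1%, 52 to 76.7) in MICAL1-M1 neurons, where 38.7% of all protein-coding genes were occupied, against 43 of 63 in control neurons. The order of these counts turned with a 500 bp window (36 against 33), where 26.8% and 31.9% of all protein-coding genes were occupied. It also turned with a 3 kb window (52 against 51), beside 53.2% and 53% of all genes. With any base of the peak the counts were 46 and 45, beside 42.3% and 45.7%. Giving each summit to its nearest gene end also turned the order (34 against 32). Starts alone gave 35 and 35 of 58 genes. For nearest ends and starts alone no share of all genes is given. At equal list size the counts were 37 (58.7%) and 43 (68.3%), against 33.4% and 42.3% of all protein-coding genes. The cut lies between rank 84391, shared by 1.94-fold MICAL1-M1 histone peaks, and rank 115751 of the next ones. Ties in p can decide which peaks stay there too, so the MICAL1-M1 shares are approximate. The density ratio was 5.48 (3.86 to 7.56), against 7.27 (5.03 to 10.2) in the control, with overlapping intervals. Relative to the control 10 members were occupied in MICAL1-M1 alone, 12 in the control alone and 31 in both, against 11.6%, 15.2% and 27.1% of all protein-coding genes. None of its 37 peaks had a q of at most 0.05, though 1.33% of all genes were occupied at that threshold in this list, and the median pileup was 8 fragments over a genome background of 2.61.

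The places were often the same as in the control. Of the MICAL1-M1 histone peaks 22 of 37 (59.5%) overlapped a control peak, against 15.8% over all MICAL1-M1 peaks, and 20 of the 34 control histone peaks (58.8%) were overlapped, against 22.5% over all control peaks. Summits lay within 100 bp of each other for 8 control histone peaks (23.5%), against 4.88% over all control peaks. The shares over all peaks include peaks far from genes, so they are not like for like with gene-end peaks. The part of the denser summits at histone gene ends was not tested. Of genes occupied in MICAL1-M1, 31 of 41 members and 5926 of 8468 protein-coding genes were also occupied in the control. In H4c18 the summit lay at position 21832018 of chromosome 13 in MICAL1-M1, at 21832016 in mCherry DIV7 and at 21832024 in the control. The peak of H2ac20, H2ac21 and H2bc21 was 3.12-fold in MICAL1-M1 (11 fragments) and 3.94-fold in the control, with summits at 96220813 and 96220790 of chromosome 3, and H3c6 was 2.41-fold in MICAL1-M1 and 4.16-fold in the control. The highest MICAL1-M1 fold was at H1f2, a linker histone gene (3.32-fold, 11 fragments, q 0.325), which had no summit in the other 3 lists. H1f5 (2.49-fold), H4c4 (1.93-fold) and the pair H2ac12 and H2bc12 (1.70-fold) were likewise occupied in this list alone and were named after the values were seen. The peak at H2bc6 and H1f4, 2.89-fold, came next after the chromosome 3 group. Of the 6 H1 genes 5 were occupied in MICAL1-M1 and 3 in the control, against 38.7% and 42.3% of all protein-coding genes.

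At DIV7, fewer histone genes were occupied than at DIV14. The share was 16 of 63 (25.4%, 15.3 to 37.9) in mCherry neurons at DIV7, where 33.2% of all protein-coding genes were occupied, against 43 of 63 in mCherry neurons at DIV14. The 16 genes rested on 14 peaks, against 34. The density ratio was 1.38 (0.755 to 2.32) at DIV7, an interval that holds the genome mean, against 7.27 (5.03 to 10.2) at DIV14. Relative to DIV14, 5 members were occupied at DIV7 alone, 32 at DIV14 alone and 11 at both, against 15.7%, 24.7% and 17.5% of all protein-coding genes. None of the 14 peaks had a q of at most 0.05 (0.228% of all genes were occupied so), 13 had a q of 1, and 4 had 3 fragments, the fewest of any peak in the list. The background was 1.28 fragments at DIV7 and 3.56 at DIV14; the part of depth was not tested here either. With each list cut to its 96647 peaks of lowest p, 10 members (15.9%) were occupied at DIV7 and 43 (68.3%) at DIV14. Of all protein-coding genes 17.6% and 42.3% were. This cut lies between rank 73882, shared by the 2.19-fold DIV7 histone peaks, and rank 164342 of the next ones. Ties in p can decide which peaks stay there, so these shares are approximate. In a 3 kb window 32 (50.8%) and 51 (81%) members were occupied, against 59.3% and 53% of all protein-coding genes.

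By class, H4 genes were occupied in 1 of 12 cases at DIV7 (8.33%, 0.211 to 38.5) and in 9 of 12 at DIV14 (75%, 42.8 to 94.5), and H1 genes in 0 of 6 at DIV7 and 3 of 6 at DIV14. The H4 gene was H4c18 (2.19-fold, 4 fragments, against 3.51-fold at DIV14). H2A genes were occupied in 6 of 17 cases at DIV7 and 12 of 17 at DIV14, H2B genes in 5 of 16 against 10, and H3 genes in 4 of 12 against 9. Of all protein-coding genes 33.2% were occupied at DIV7 and 42.3% at DIV14. The distinct peaks at DIV7 and DIV14 were 0 and 3 for H1, 6 and 14 for H2A and 5 and 11 for H2B. They were 5 and 10 for H3 and 1 and 11 for H4. The intervals of these classes are wide and genes within a class share peaks, so no order among classes is given. The highest DIV7 fold was at the peak of H3c15 and H2ac19 on chromosome 3 (chr3:96239793-96240230, 3.94-fold, 8 fragments, q 0.159), which ranked 522 in its list. In the control that pair had the 3.19-fold peak. H2ac8 with H2bc8 (2.63-fold) and H2ac10 (2.19-fold) were occupied at DIV7 alone of the 4 lists (H2ac10 was named after the values were seen), and H2bc18 had a DIV7 peak of 2.63-fold. Of the DIV7 histone peaks 7 of 14 (50%) overlapped a DIV14 peak, against 5.65% over all DIV7 peaks. Of the 34 DIV14 histone peaks 7 (20.6%) were overlapped, against 12.1% over all DIV14 peaks. The shares over all peaks include peaks far from genes, so they are not like for like. Of genes occupied at DIV7, 11 of 16 members and 3841 of 7271 protein-coding genes were also occupied at DIV14.

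**Figure D4:**
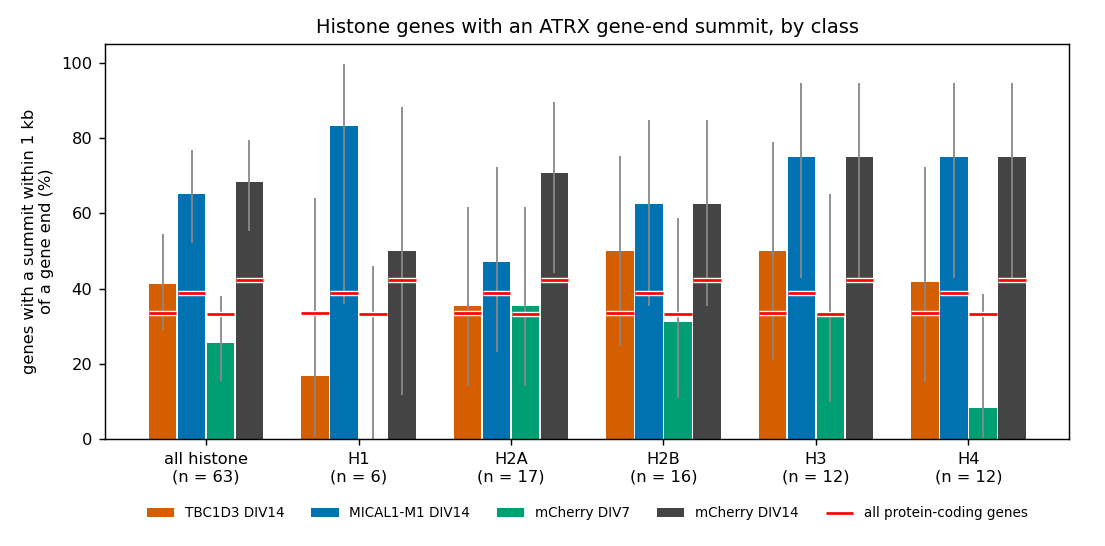
Share of histone genes called occupied, by class and library, with 95% exact binomial intervals; red lines give the share of all protein-coding genes in the same library. MICAL1-M1 and mCherry DIV14 stand above their red line for the whole set (65.1% and 68.3%), and mCherry DIV7 stands below its own (25.4%).

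The 3 comparisons share the control library. Values of single members across the 4 lists varied widely. H2ac22, H2bc3, H2bc18, H3c1 and H3c15 were occupied in all 4 lists (7.94% of members, against 6.24% of all protein-coding genes). H2bc18 had 3.35-fold in TBC1D3, 2.12-fold in MICAL1-M1, 2.63-fold in mCherry DIV7 and 3.07-fold in the control. H3c1 had 2.26-fold, 2.21-fold and 1.75-fold in TBC1D3, MICAL1-M1 and mCherry DIV7 and 3.51-fold in the control, and H3c15 had 1.74-fold, 1.94-fold, 3.94-fold and 3.19-fold in the same order. H2ac22 lay between 1.73-fold (mCherry DIV7) and 2.77-fold (MICAL1-M1), and H2bc3 between 1.75-fold (mCherry DIV7) and 3.16-fold (TBC1D3). H2bc13, H2ac15 and H2bc15, all in the first chromosome 13 cluster, had no summit in any list (4.76%, against 27.0% of all protein-coding genes). No member was occupied in the other 3 lists and free in the control. By cluster the shares in TBC1D3, MICAL1-M1, mCherry DIV7 and the control were 4, 9, 5 and 9 of 10 on chromosome 3, 7, 14, 4 and 15 of 22 in the first and 15, 18, 7 and 19 of 31 in the second chromosome 13 cluster. Of all protein-coding genes 33.4%, 38.7%, 33.2% and 42.3% were occupied. The distinct peaks numbered 2, 6, 4 and 6 on chromosome 3. They numbered 5, 13, 4 and 12 in the first and 10, 18, 6 and 16 in the second chromosome 13 cluster.

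**Figure D5:**
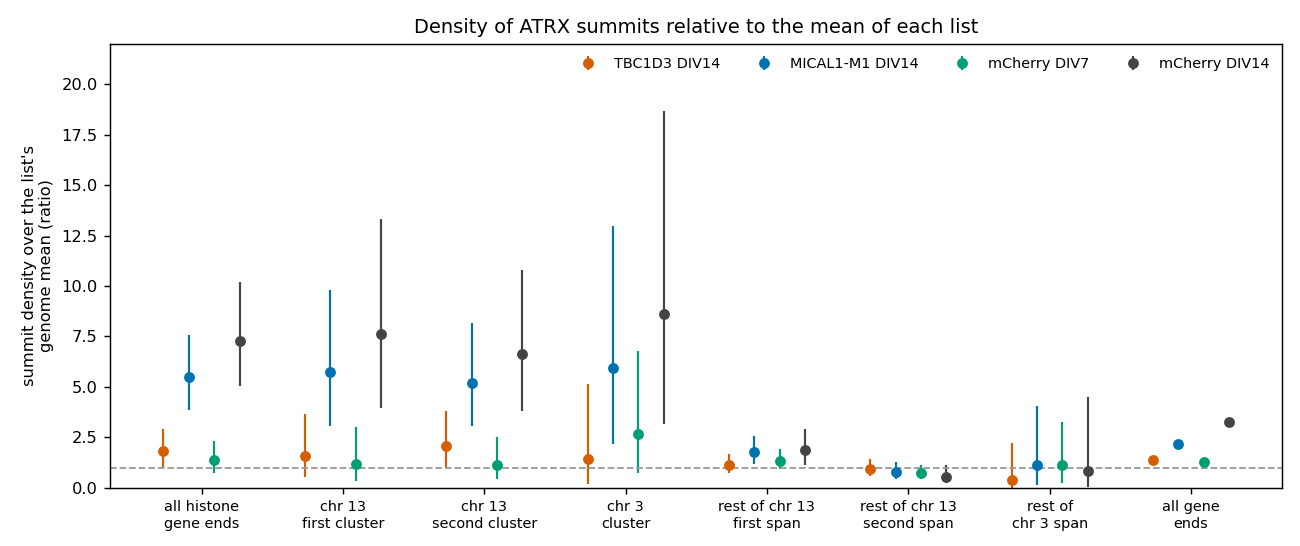
Summit density in merged windows of 1 kb around gene ends, and in the rest of each cluster span, divided by the genome mean of the same list, with 95% exact Poisson intervals; the dashed line marks the genome mean. At histone gene ends MICAL1-M1 (5.48) and mCherry DIV14 (7.27) lie apart from TBC1D3 (1.80) and mCherry DIV7 (1.38).

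Genes around and behind the histone clusters were set beside the members. The counts are to be read against the shares of all protein-coding genes, 33.4% in TBC1D3, 38.7% in MICAL1-M1, 33.2% in mCherry DIV7 and 42.3% in the control; the lists are small and several counts lie near these shares. Of the 10 other protein-coding genes within the cluster spans, among them H4bc24, which had an older H2B symbol, the zinc finger gene Zfp184, the iron regulator Hfe and the transporter genes Slc17a2, Slc17a3 and Slc17a4, 3 were occupied in TBC1D3, 2 in MICAL1-M1, 3 in mCherry DIV7 and 3 in the control. Genes of histone transcription and 3′ end processing were occupied in 4, 10, 10 and 12 of 19 cases in the same order. In the control this list included Srrt (3.77-fold), Cstf2 (3.72-fold), Zfp473 (3.29-fold), whose protein binds the processing complex of histone transcripts, and E2f1 (3.27-fold), all with a q of at most 0.05, and, with a larger q, Slbp (2.53-fold), the stem-loop binding protein, and Npat (2.48-fold). Replication-independent histone genes were occupied in 8, 8, 5 and 9 of 14 cases, with H1f0, the linker histone of non-dividing cells (3.32-fold), H2aj (3.31-fold) and Macroh2a2 (3.29-fold) at a q of at most 0.05 in the control; the H3.3 genes H3f3a (2.62-fold) and H3f3b (1.87-fold) had weaker control peaks. Histone chaperone genes were occupied in 4, 13, 6 and 12 of 20 cases, with Ssrp1 (3.94-fold), Ubn2 (3.34-fold) and Hjurp (3.13-fold) at a q of at most 0.05 in the control and Npm1 (3.62-fold) in MICAL1-M1.

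Markers of cell types say little in a peak list, since a peak is no measure of expression, and with 5 to 16 genes a list the counts carry wide counting error beside the 33.4%, 38.7%, 33.2% and 42.3% of all protein-coding genes. Neuronal markers were occupied in 2, 8, 5 and 8 of 11 cases in TBC1D3, MICAL1-M1, mCherry DIV7 and the control, astrocyte markers in 2, 1, 3 and 0 of 5, oligodendrocyte lineage markers in 2, 4, 3 and 5 of 6, microglia markers in 1, 0, 2 and 0 of 5, markers of fibroblasts and endothelium in 3, 1, 3 and 2 of 5, and genes of dividing cells in 5, 6, 6 and 6 of 16. Their part in the histone results was not tested.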

How the data were processed

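Per the labels' protocols, ATRX ChIP and input DNA were sequenced from both ends, with input as background; the input sample was not analysed here. Per the submitters' processing notes the tools were MACS 1.4.2, Bowtie 1.3.0, ChIPseeker 1.26.2 and SAMtools 1.9. No source used here gives settings or a genome build; coordinates were taken as GRCm38, which earlier work on these lists had found to match. The deposited narrowPeak lists hold, per peak, the authors' score (10 times the -log10 p), fold ratio, -log10 p-value and -log10 q-value, and a summit offset. Each list is 1 library and reaches an uncorrected p of 0.05.

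Only peaks on assembled chromosomes entered: 198756 in TBC1D3, 141330 in MICAL1-M1, 213571 in mCherry DIV7 and 96647 in the control. Read totals were not analysed here; pileups were found as the whole number that gives a peak's fold and a Poisson p within 0.001 in log10 (99.98% to 99.99% of peaks). Summits were joined to the RefSeq GRCm38.p6 gene table with Python 3.11.15 and scipy 1.17.1, checked on simulated peaks. Strand came from the promoter table. Clusters were parted at gaps of 1 Mb.

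Members and lists were chosen with earlier results of these data known. Named were members with a q of at most 0.05, the highest folds per list, members occupied in all or none of the lists, and in the comparison lists genes with such a q. The members found in 1 list, the H1 and testis genes, Slbp, Npat, the H3.3 genes, the cluster neighbours and the printed promoters were chosen for their role or after their values were seen. Another window, any peak base, the q threshold, equal list size, nearest ends and starts alone were tried. At equal list size, peaks tied in p at the cut could not be ordered by strength.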

Additional observations from a re-analysis of the deposited data

How the results depend on the processing

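Of the values under alternative settings, 81 kept within the counting interval or 1.5 times, 27 moved further and 4 turned. The 4 are the difference of MICAL1-M1 from the control, -2 genes, which became 3 with a 500 bp window, 1 with a 3 kb window, 1 with any base of the peak and 2 with nearest gene ends. The differences of TBC1D3 (-17) and of mCherry DIV7 (-27) kept their sign under each setting run; they were -28 for TBC1D3 at equal list size, and -19 in a 3 kb window and -18 with nearest ends for mCherry DIV7. At a q of at most 0.05 the control kept 15 genes and 8 peaks, with a density ratio of 38.6, and TBC1D3, MICAL1-M1 and mCherry DIV7 had 0 genes, 0 peaks and a ratio of 0, so each difference was -15. Of all protein-coding genes only 0.146%, 1.33% and 0.228% were occupied so in these 3 lists, against 8.47% in the control. With so few genes able to pass, the sign of a difference at this threshold says little. TBC1D3 had 12 genes and 11 peaks in a 500 bp window, 15 genes and 9 peaks at equal list size and 17 genes with nearest ends. At DIV7 there were 32 genes in a 3 kb window, and 10 genes and 8 peaks at equal list size. In a 3 kb window the density ratios were 3.59 in MICAL1-M1 and 4.16 in the control. At equal list size 19.2% of all protein-coding genes were occupied with TBC1D3, 33.4% with MICAL1-M1 and 17.6% at DIV7, against 42.3% in the control. In a 3 kb window 57.7% were occupied in TBC1D3 and 59.3% in mCherry DIV7, against 53% in the control, while 58.7% and 50.8% of histone genes were, against 81%. The causes were not tested, other than that fewer peaks enter at equal list size and at a q of at most 0.05. Adding histone genes found by an older Hist symbol, chosen after seeing the data, made 66 genes. Of these, 27 were occupied in the TBC1D3 list, 43 in that of MICAL1-M1, 17 at DIV7 and 46 in the control. H4bc24, counted above as a cluster neighbour, is among the added genes. The median peak had a pileup of 4 fragments in the TBC1D3 list and 4 at DIV7, against 9 in the control list. No paired analysis was possible because each group has 1 library.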

Other observations

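Histone genes and pseudogenes outside the naming rule had these values, looked up after the members were seen. On chromosome 11, H2aw (formerly Hist3h2a) and the neighbouring pseudogene H2bu1-ps shared a peak in each of the 4 lists, 3.16-fold in TBC1D3, 3.05-fold in MICAL1-M1, 1.75-fold in mCherry DIV7 and 3.51-fold in the control, where it had a q of at most 0.05. H2bu2 (formerly Hist3h2ba), on the same chromosome, had a peak in MICAL1-M1 (2.77-fold) and in the control (3.11-fold). H3f4 had none in any list. H4f16 (formerly Hist4h4) on chromosome 6 had a peak in MICAL1-M1 (2.43-fold), mCherry DIV7 (2.19-fold) and the control (1.83-fold). The pseudogene H2ac5-ps in the second chromosome 13 cluster had a peak in TBC1D3 (3.16-fold), MICAL1-M1 (2.22-fold) and mCherry DIV7 (1.75-fold) and none in the control, and H2ac14, a pseudogene of the first cluster, had one in mCherry DIV7 (2.39-fold) and the control (2.36-fold).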
